A study of Mus musculus with 6 samples.

Results

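The 10 genes described here encode peptide hormones and a carrier protein of the pancreatic islet and its endocrine relatives in the gut: Ins2, Iapp, Gcg, Sst, Ppy, Pyy, Ghrl, Ttr, Gast and Cck. They were taken as a named set, and all 10 were found among 20416 genes of the array, through 43 probe sets that the array annotation ties to 1 gene symbol each. The arrays, 6 in all, held RNA of MIN6-4N, a beta cell line from a mouse insulinoma. The Meg3 group was 3 cultures of 1 clone stably transfected with pcDNA3.1 carrying mouse Meg3, an imprinted long non-coding RNA. The vector group was 3 cultures of 1 clone with empty pcDNA3.1. Both clones had come through 5 weeks of selection with G418 at 750 µg/ml and were then grown in low glucose medium with 15% serum and G418 at 500 µg/ml. Because each group was a single clone, Meg3 and whatever else distinguishes the clones cannot be told apart, and p-values measure only the spread between cultures. The labels write the number of the Meg3 clone in more than 1 way, and they mention a sort of the cells that no protocol describes.

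Each islet endocrine cell type is known by the hormone it stores. Beta cells secrete insulin together with amylin (Iapp), alpha cells glucagon (Gcg), delta cells somatostatin (Sst), PP cells pancreatic polypeptide (Ppy) and the rare epsilon cells ghrelin (Ghrl), while cholecystokinin (Cck), gastrin (Gast) and peptide YY (Pyy) are best known from gut endocrine cells and neurons. All these peptides are cut from larger precursors in secretory granules. Transthyretin (Ttr) is a carrier of thyroxine and of retinol-binding protein that islet cells, alpha cells above all, also make. Insulinoma lines are known to carry transcripts of hormones other than insulin.

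Windows of 8 of the 10 genes were used from the RefSeq table of promoter windows (build GRCm38.p6). That count does not show which genes the source lacks. The 250 bases before the start are given for 3 genes that read near the top of these arrays, Iapp, Gcg and Cck, and for Sst, which read near background, so that their upstream sequences can be set beside their levels. Capitals mark TAAT, the core that homeodomain factors such as Pdx1 recognise, and TGACG, the core of the cyclic AMP response element, each on either strand (ATTA and CGTCA on the strand shown). Neighbouring matches can overlap and then read as 1 run.
Iapp, chr6:142298175-142298424, plus strand: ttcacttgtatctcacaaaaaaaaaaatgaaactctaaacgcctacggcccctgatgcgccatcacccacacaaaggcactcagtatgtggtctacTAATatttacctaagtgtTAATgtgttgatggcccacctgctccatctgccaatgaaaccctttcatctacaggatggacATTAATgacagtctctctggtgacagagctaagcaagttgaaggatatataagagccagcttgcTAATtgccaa
Gcg, chr2:62483654-62483903, minus strand: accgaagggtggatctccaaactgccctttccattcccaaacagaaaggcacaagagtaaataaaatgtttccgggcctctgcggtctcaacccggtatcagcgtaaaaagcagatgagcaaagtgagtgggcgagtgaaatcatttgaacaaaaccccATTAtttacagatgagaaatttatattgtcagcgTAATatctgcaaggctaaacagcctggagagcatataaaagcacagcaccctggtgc
Cck, chr9:121495695-121495944, minus strand: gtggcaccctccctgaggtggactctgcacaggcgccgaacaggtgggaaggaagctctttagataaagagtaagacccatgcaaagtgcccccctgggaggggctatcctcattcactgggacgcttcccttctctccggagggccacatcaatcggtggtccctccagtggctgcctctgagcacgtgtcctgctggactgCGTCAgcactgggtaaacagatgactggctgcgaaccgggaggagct
Sst, chr16:23890845-23891094, minus strand: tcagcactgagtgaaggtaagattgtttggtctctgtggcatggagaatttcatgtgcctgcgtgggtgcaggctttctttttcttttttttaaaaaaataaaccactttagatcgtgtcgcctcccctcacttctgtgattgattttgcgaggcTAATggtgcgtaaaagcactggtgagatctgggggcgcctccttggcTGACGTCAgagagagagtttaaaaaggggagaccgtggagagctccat
The Iapp window held 5 matches to TAAT, that of Gcg 2, that of Sst 1 and that of Cck 0. TGACG was found in the window of Sst, where 2 overlapping matches form the palindrome TGACGTCA, and once in that of Cck. Of 32851 windows of 250 bases in the table, 54.9% held TAAT, 17.8% held TGACG and 1.55% held TGACGTCA, so the first of these is common. A match is a run of letters and no evidence of binding.

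Meg3 replicate 1 and vector replicate 2 stood apart from the other arrays. Set against the median of the 5 others at each probe set, these arrays had an SD of 0.63 and 0.85, and each of the remaining 4 had one of 0.42 to 0.48. Results that rest on them are given with and without them.

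The hormone genes fell into a bright and a dim set, and the split was the same in both clones. Iapp, Gcg, Ins2, Ttr and Cck had mean log2 values from 11.60 to 13.28 over the 6 arrays. Ghrl, Ppy, Gast, Sst and Pyy had means from 6.00 to 7.48, around the median of all genes (6.66). Values are the authors' log2 probe set values, averaged over the probe sets of a gene. Probe sets bind with different strength, so the order of genes with close levels is not read here. Olfactory receptor genes, which a beta cell line is not known to express, served as a yardstick for background: the 95th percentile of their 1199 probe sets lay between 5.91 and 6.28 on the arrays. All 24 probe sets of the bright genes exceeded that level on all 6 arrays, and they also exceeded the 99th percentile (7.17 to 7.69). Of the 19 probe sets of the dim genes, 10 exceeded the 95th percentile on all 6 arrays and 4 the 99th. The median of all probe sets, 7.02 to 7.19 by array, also lay above the 95th percentile on every array. Most probe sets therefore exceed it on any given array. The share over all probe sets was not counted, so 10 of 19 is no result about the dim genes.

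**Figure D1:**
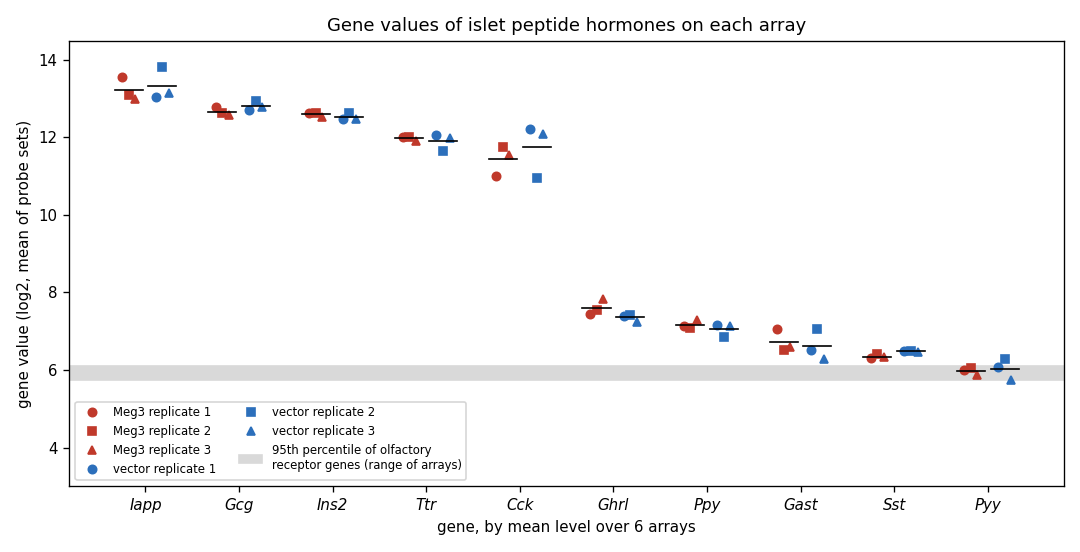
Gene value of each hormone gene (log2, vertical axis) on the 3 Meg3 arrays (red, left) and the 3 vector arrays (blue, right), with black bars at the group means; the grey band spans the 95th percentile of olfactory receptor genes over the arrays (5.74 to 6.11). Iapp, Gcg, Ins2, Ttr and Cck lie at 10.96 or higher on every array and the other genes at 7.83 or lower.

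Among the beta cell hormones, Iapp read 13.57, 13.09 and 13.00 in the Meg3 cultures 1 to 3, against 13.05, 13.81 and 13.14 in the vector cultures 1 to 3. Meg3 replicate 1 and vector replicate 2 were the highest of their groups, and the groups overlapped. On every array Iapp ranked between 1 and 3 among 20416 genes. The group means were 13.22 ± 0.30 in the Meg3 clone and 13.34 ± 0.41 in the vector clone (SD, n = 3 each), a log2 difference of -0.12 (SE 0.23; 95% interval -0.65 to 0.42; limma adjusted p = 1.00). Its 3 probe sets were close to each other, with means from 12.97 to 13.43.

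Ins2 encodes 1 of the mouse insulins. It read 12.64, 12.62 and 12.54 in the Meg3 cultures, against 12.49, 12.64 and 12.48 in the vector cultures. The groups overlapped through vector replicate 2 alone, and of the 10 genes Ins2 had the smallest spread in the Meg3 clone (SD 0.05). The difference was 0.06 (SE 0.11; 95% interval -0.20 to 0.32; limma adjusted p = 1.00). Its 5 probe sets spanned 3.36 log2 units, from 10.34 to 13.70, and the brightest lay close to the highest value of any probe set (13.81 to 14.06 by array). Insulin genes of the mouse resemble each other, so probes may share signal.

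The alpha cell hormone gene Gcg, which encodes proglucagon, the precursor of glucagon and GLP-1, was among the brightest genes of this beta cell line. It read 12.79, 12.62 and 12.58 in the Meg3 cultures, against 12.72, 12.95 and 12.78 in the vector cultures. Only Meg3 replicate 1 reached into the range of the vector clone. Gcg ranked between 11 and 17 of all genes, and Ins2 between 17 and 29, by the mean of probe sets. The brightest Ins2 probe set averaged 13.70, above the brightest of Gcg (13.42), so the order of Gcg and Ins2 is not read. The 6 Gcg probe sets had means from 11.23 to 13.42, and all 6 had negative differences, from -0.33 to -0.05. For the gene the difference was -0.16 (SE 0.12; 95% interval -0.44 to 0.13; limma adjusted p = 1.00), and without Meg3 replicate 1 and vector replicate 2, the arrays that stood apart, it was -0.15 (SE 0.10; adjusted p = 0.436). In RNA from a whole culture, a few cells with much of a transcript and many cells with little of it cannot be told apart.

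Ttr, the thyroxine carrier, read 12.01, 12.02 and 11.91 in the Meg3 cultures, against 12.07, 11.65 and 11.99 in the vector cultures. Vector replicate 2 was the lowest array, and the groups overlapped. Of its probe sets, 4 averaged from 12.41 to 12.93 and the last 9.07, a range of 3.86 log2 units. The difference was 0.08 (SE 0.14; limma adjusted p = 1.00) with all arrays and -0.065 (SE 0.10; adjusted p = 0.770) without the arrays that stood apart.

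Cck, the gene of cholecystokinin, a peptide that drives gallbladder contraction and acinar secretion and acts as a neuropeptide, was bright and the most variable of the set. It read 11.01, 11.75 and 11.55 in the Meg3 cultures, against 12.21, 10.96 and 12.09 in the vector cultures. The lowest value of all came from vector replicate 2 and the next from Meg3 replicate 1, while vector replicates 1 and 3 lay above all 3 Meg3 cultures. The means were 11.44 ± 0.38 in the Meg3 clone and 11.75 ± 0.69 in the vector clone (SD, n = 3 each). With all 6 arrays the difference was -0.31 (SE 0.34; 95% interval -1.09 to 0.46; limma adjusted p = 1.00), and Cck was the 1 gene of the 10 whose interval reached past a 2-fold change.

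Without Meg3 replicate 1 and vector replicate 2, Cck was lower in the Meg3 clone by -0.50 on the log2 scale (SE 0.11; 95% interval -0.74 to -0.26; limma adjusted p = 0.0281), and it was the 1 hormone gene called of 10, where 5.44% of all genes were called in that setting. Those arrays were known to stand apart from earlier results of these data, and 2 cultures then remain in each group. Leaving out only vector replicate 2 gave -0.71 (adjusted p = 0.170) and leaving out only Meg3 replicate 1 gave -0.10 (adjusted p = 0.992), while leaving out only vector replicate 1 or vector replicate 3 gave -0.083 and -0.15. With limma's array weights, which give less weight to arrays that fit poorly, the value was -0.52 (adjusted p = 0.0211), where 13.1% of all genes were called. The estimate of these weights did not fully converge. The Cck result therefore rests on how those arrays are treated.

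The Cck probe sets did not move alike on these arrays. Numbered in the order of their identifiers, probe set 1 read 12.78, 12.72 and 12.56 in the Meg3 cultures, against 12.72, 13.10 and 12.80 in the vector cultures. Probe set 5 read 11.61, 12.87 and 12.45 in the Meg3 cultures, against 13.46, 11.21 and 13.15 in the vector cultures. The first was thus highest on Meg3 replicate 1 and vector replicate 2 within their groups, and the last was lowest there. Relative to the other cultures of its group, Meg3 replicate 1 stood at 0.14, -0.50, -0.41, -1.39 and -1.05 log2 units over probe sets 1 to 5. Vector replicate 2 stood at 0.34, -1.07, -1.36, -1.79 and -2.09. Without both arrays all 5 probe sets were lower in the Meg3 clone, by -0.75 to -0.12. Of these, 3 had an unadjusted p under 0.05, where 10.3% of all probe sets did. By limma 0 were called, but so were 0 of all 241419 probe sets, so that count is no result about Cck. The median of the probe sets, in place of their mean, gave a Cck difference of 0.01 with all 6 arrays.

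**Figure D2:**
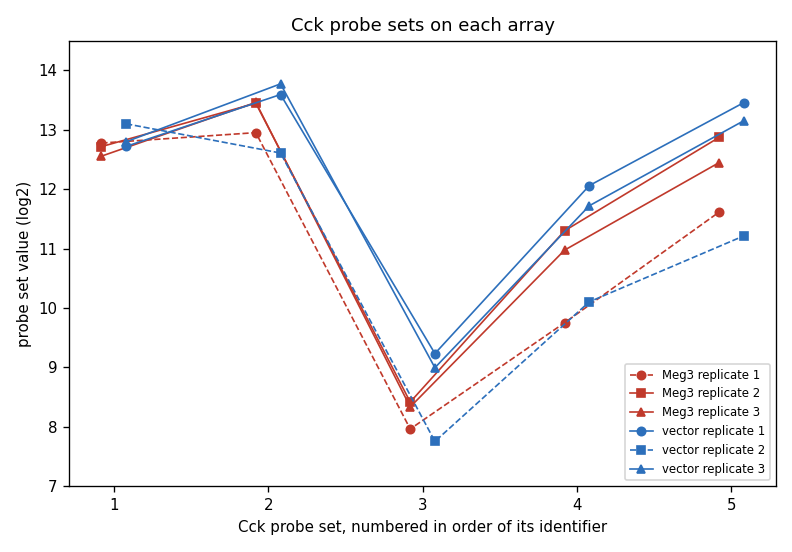
Values of the 5 Cck probe sets (log2, vertical axis), numbered in the order of their identifiers (horizontal axis), on the 3 Meg3 arrays (red) and the 3 vector arrays (blue); broken lines mark Meg3 replicate 1 and vector replicate 2, and lines only join the points of an array. At probe set 5 these arrays read 11.61 and 11.21, below the other 4, and at probe set 1 they read 12.78 and 13.10.

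Ghrl, the ghrelin gene, read 7.44, 7.54 and 7.83 in the Meg3 cultures, against 7.40, 7.43 and 7.25 in the vector cultures. The groups did not overlap, though Meg3 replicate 1 and vector replicate 2 lay close to each other. The difference was 0.25 (SE 0.14; 95% interval -0.07 to 0.57; limma adjusted p = 0.905), and all 4 probe sets were positive, by 0.08 to 0.50. Probe set 2 averaged 5.56 and exceeded the background yardstick on 1 array, while the other 3 exceeded it on all 6. Without the arrays that stood apart the difference was 0.36 (SE 0.12; adjusted p = 0.128). With array weights it was 0.42 (limma adjusted p = 0.0123), the 1 setting in which Ghrl was called, where 13.1% of all genes were called.

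Sst, the somatostatin gene, read 6.30, 6.41 and 6.33 in the Meg3 cultures, against 6.49, 6.49 and 6.47 in the vector cultures. All Meg3 cultures were lower than all vector cultures, but the difference was small (-0.14, SE 0.11; 95% interval -0.39 to 0.11; limma adjusted p = 1.00). Only 2 probe sets measured it, none exceeded the 99th percentile of olfactory receptor probe sets on any array, and the separation came from 1 of them (-0.34, SE 0.18). Groups that do not overlap were found for 12.8% of all genes, and here for Ghrl and Sst among 10. With 3 against 3 arrays, groups that do not overlap always get the smallest p of an exact permutation test, 0.1 (two-sided). For Ghrl and Sst that test therefore adds nothing.

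Ppy and Pyy, related genes of the neuropeptide Y family on chromosome 11, each had some probe sets above the background yardstick and others at or below it. Ppy ranged from 7.09 to 7.29 in the Meg3 clone and from 6.86 to 7.16 in the vector clone, with a difference of 0.12 (SE 0.13; 95% interval -0.19 to 0.42). Of its 5 probe sets, 3 exceeded the yardstick on all arrays. Ppy probe set 3 read 9.22, 9.20 and 9.35 in the Meg3 cultures, against 8.82, 9.17 and 8.98 in the vector cultures, well above the means of the other 4 (5.99 to 7.18). Pyy ranged from 5.86 to 6.04 in the Meg3 clone and from 5.73 to 6.29 in the vector clone (difference -0.06, SE 0.16). The Pyy probe sets ran from 3.72 to 8.26, a range of 4.54 log2 units, with 2 of 5 above the background yardstick on all arrays and 2 on none.

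Gast, the gastrin gene, ranged from 6.51 to 7.06 in the Meg3 clone and from 6.29 to 7.06 in the vector clone (difference 0.10, SE 0.23; 95% interval -0.42 to 0.62). The highest value of each clone, 7.06 on both, came from Meg3 replicate 1 and vector replicate 2. Most of this stemmed from probe set 1, which read 8.26, 6.97 and 7.17 in the Meg3 cultures, against 6.95, 8.16 and 6.78 in the vector cultures. The other probe sets averaged 6.25 and 6.39, at the level of the background yardstick. Probe set 3 was also higher on vector replicate 2 (6.89) than on vector replicates 1 and 3 (6.11 and 5.86).

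**Figure D3:**
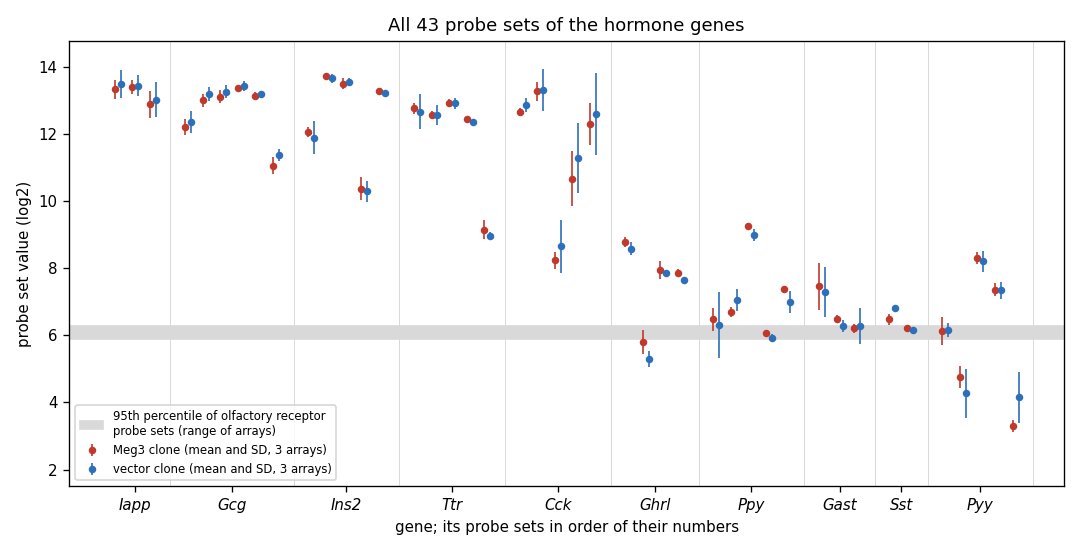
Mean and SD over 3 arrays of each of the 43 probe sets (log2, vertical axis) in the Meg3 clone (red, left) and the vector clone (blue, right), grouped by gene and in the order of their identifiers; the grey band spans the 95th percentile of olfactory receptor probe sets over the arrays (5.91 to 6.28). Probe sets of Cck spread most within a gene (8.45 to 13.30) and those of Iapp least (12.97 to 13.43).

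Meg3 itself, which checks the labels, read 7.24, 7.91 and 7.53 in the Meg3 cultures, against 5.63, 6.00 and 5.88 in the vector cultures (log2 difference 1.72, SE 0.19; limma adjusted p = 0.00756). Of the 10 hormone genes, 0 were called by limma at an adjusted p under 0.05, and 0 had an unadjusted p under 0.05. Over all genes, 0.666% were called and 6.96% had an unadjusted p under 0.05. Differences ran from -0.31 (Cck) to 0.25 (Ghrl), with a median of 0.00 against 0.01 over all genes. For 9 of the 10, all but Cck, the 95% interval lay within a 2-fold change in either direction. Tested singly, 0 of the 43 probe sets were called by limma and 0 had an unadjusted p under 0.05, where 0.000828% of all probe sets were called and 5.66% had such a p. In 5 of the 43 the groups did not overlap, or in 11.5% of all probe sets. Of the 43, 23 had positive and 20 negative differences.

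**Figure D4:**
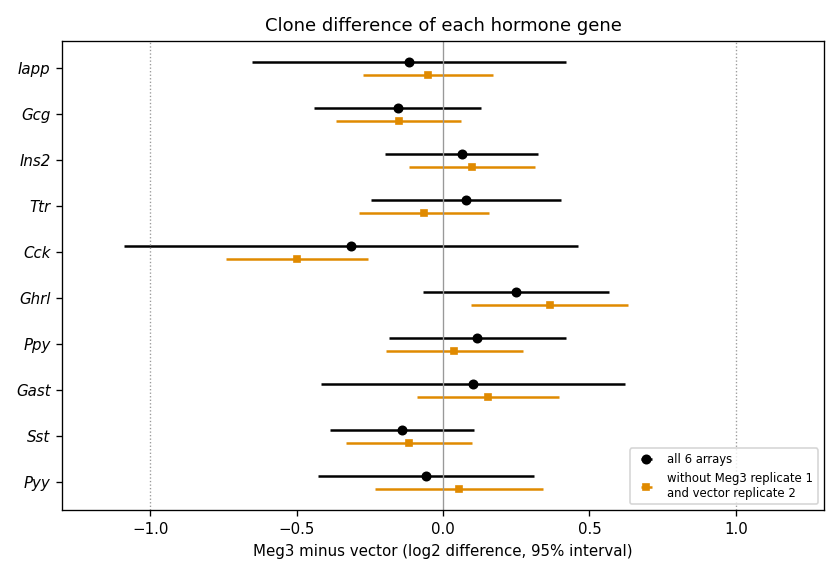
Meg3 minus vector difference of each hormone gene (log2, horizontal axis) with its 95% interval, from all 6 arrays (black circles) and without Meg3 replicate 1 and vector replicate 2 (orange squares); dotted lines mark a 2-fold change. With all arrays every interval holds 0; without those arrays the intervals of Cck (-0.74 to -0.26) and Ghrl (0.10 to 0.63) do not.

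Whether the probe sets of a gene differed from each other in their clone difference was tested with limma's diffSplice over 18124 genes with at least 2 probe sets. Of the 10 hormone genes, 0 were called at an adjusted p under 0.05 and 0 had an unadjusted p under 0.05 (lowest 0.0909, for Pyy), where 0.386% of all genes were called. Without the arrays that stood apart, 0 of the 10 were called or had an unadjusted p under 0.05, where 1.85% of all genes were called. The wide ranges of level among probe sets of Cck, Pyy, Ttr and Ins2 were thus not matched by a difference between clones that this test could call. The test called few genes on the whole array, so this is no result about the hormone genes. The share of all genes with an unadjusted p under 0.05 was not counted.

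Meg3 replicate 1 and vector replicate 2 deviated in the same direction at many hormone probe sets. Of the 43 hormone probe sets, 30 deviated the same way on both (17 higher, 13 lower), or 69.8%, against 64.0% of all probe sets. The deviations correlated at Pearson 0.76 and Spearman 0.72 across the 43 probe sets, against Pearson 0.37 across all 241419, as a description only. Probe sets of a gene share its transcript, and both deviations are set against cultures of their own clone. At the level of genes, Iapp was higher on both arrays (by 0.52 and 0.71), as were Gast (0.50 and 0.66) and Gcg (0.19 and 0.20), and Cck was lower (-0.64 and -1.19). The part of these arrays in the values of the hormone genes was not tested beyond leaving them out.

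**Figure D5:**
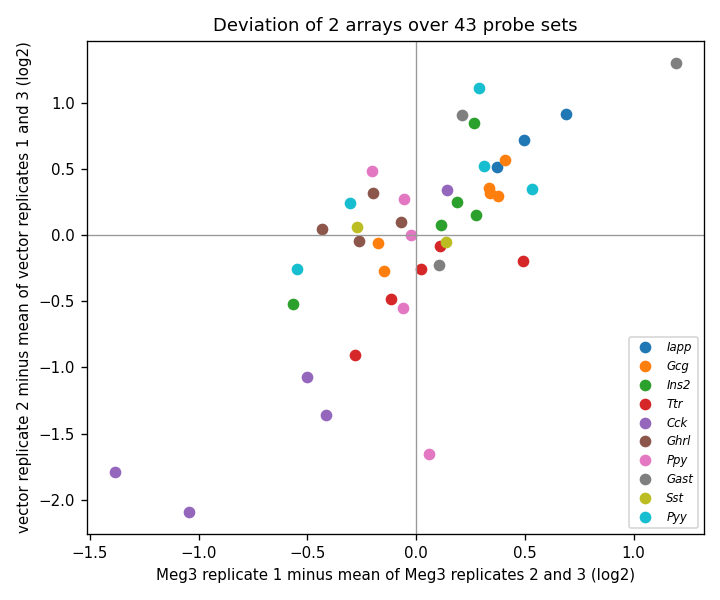
Deviation of Meg3 replicate 1 from the mean of Meg3 replicates 2 and 3 (log2, horizontal axis) against the deviation of vector replicate 2 from the mean of vector replicates 1 and 3 (log2, vertical axis), a point for each of the 43 probe sets, coloured by gene. Points of Iapp lie at the upper right, and 4 of the 5 Cck points lie at the lower left.

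Marker lists of islet and other cells were set beside the hormones. The islet lists hold hormone genes of the set themselves: Ins2 and Iapp for beta cells, Gcg and Ttr for alpha cells and Sst for delta cells. The median of all genes lay above the 95th percentile of olfactory receptor genes on every array. Most genes therefore exceed that percentile on any given array. The share over all genes was not counted, so a marker that exceeds it is not thereby shown to be expressed. Of 9 beta cell markers, 8 exceeded the 95th percentile of olfactory receptor genes on all 6 arrays, among them G6pc2, a glucose-6-phosphatase subunit (12.65 ± 0.19 in the Meg3 clone, 12.70 ± 0.16 in the vector clone, SD, n = 3 each), and Slc30a8, the granule zinc transporter (12.42 ± 0.12 and 12.48 ± 0.05). The beta cell list also held dim genes: Slc2a2, a glucose transporter gene, averaged 6.87 ± 0.11 in the Meg3 clone and 7.14 ± 0.03 in the vector clone, and Mafa, a transcription factor gene, 6.86 ± 0.09 and 7.09 ± 0.08. Ucn3, a peptide gene of mature beta cells, exceeded the percentile on no array. Of 5 alpha cell markers measured, 4 exceeded it on all arrays, Gcg and Ttr among them. The transcription factor gene Irx2 averaged 7.21 ± 0.18 in the Meg3 clone and 7.16 ± 0.18 in the vector clone, and the amino acid transporter gene Slc38a5 6.52 ± 0.22 and 6.86 ± 0.36. Of 3 delta cell markers, Sst and Rbp4, the gene of retinol-binding protein (6.14 ± 0.08 in the Meg3 clone and 6.29 ± 0.16 in the vector clone), exceeded it on all arrays, and Hhex, a transcription factor gene of that cell type, on none. Of the PP cell markers Ppy and Pyy, 1 exceeded it on all arrays. Of 7 acinar markers and 4 endothelial markers, 0 exceeded it on all arrays. Of 5 duct markers 2 did, with Krt7 bright (10.03 ± 0.23 in the Meg3 clone and 10.13 ± 0.33 in the vector clone) and Krt19 on no array. Of 5 fibroblast markers 3 exceeded it and of 4 leukocyte markers 2, Cd68 and Cd3e. Cd68 averaged 8.33 ± 0.25 in the Meg3 clone and 8.62 ± 0.58 in the vector clone. Ptprc, the defining leukocyte marker, exceeded the percentile on no array. With all arrays 0 members of these marker lists were called by limma, where 0.666% of all genes were. Without the arrays that stood apart, Slc38a5 (-0.43, SE 0.10; adjusted p = 0.0362) and Cd3e, a T cell gene (-0.72, SE 0.10; adjusted p = 0.00238), were called lower, where 4.01% of all genes were. Slc30a8, Slc2a2, Mafa, Irx1, Irx2, Slc38a5, Ucn3, Hhex, Krt19 and Ptprc were named after their values were seen. The mean level of the leukocyte list was 6.28 to 6.44 in the Meg3 clone and 6.28 to 6.59 in the vector clone, that of the duct list 6.35 to 6.46 and 6.30 to 6.39, and that of the fibroblast list 6.11 to 6.17 and 6.11 to 6.36. The part of other cells in the hormone values was not tested. The mean level of the acinar list was 5.59 to 5.70 in the Meg3 clone and 5.57 to 5.71 in the vector clone. That of the alpha cell list was 8.80 to 8.97 in the Meg3 clone and 8.78 to 9.03 in the vector clone. Gcg (12.74) and Ttr (11.94) raise the alpha cell mean, while Irx1 (6.02), Irx2 (7.18) and Slc38a5 (6.69) averaged far less over the 6 arrays.

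The genes that act with the hormones were described as lists. Of 35 other peptide hormone and neuropeptide genes, 0 were called by limma, 4 had positive and 2 negative differences with an unadjusted p below 0.05, and the median difference was -0.06. Over all genes 0.666% were called and 6.96% had such a p. The brightest were Pdyn, the prodynorphin gene (11.03 ± 0.40 in the Meg3 clone, 11.40 ± 0.57 in the vector clone), and Nucb2, the nesfatin precursor gene (11.05 ± 0.09 and 11.13 ± 0.06). Npy, chosen after its values were seen, is the neuropeptide Y gene of the family that holds Ppy and Pyy. It read 9.87, 10.15 and 10.03 in the Meg3 cultures, against 10.81, 10.47 and 10.69 in the vector cultures, without overlap (-0.64, SE 0.14; limma adjusted p = 0.123). Without the arrays that stood apart it was lower by -0.66 (SE 0.10; adjusted p = 0.00535), the 1 gene of the 35 called, where 5.44% of all genes were.

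Of 21 receptor genes for the hormones, 0 were called by limma with all arrays, 1 had a positive and 1 a negative difference with an unadjusted p below 0.05, and the median difference was -0.02. These counts are near the shares over all genes, 0.666% called and 6.96% with such a p. The brightest was Glp1r, the receptor of a proglucagon product (10.96 ± 0.60 in the Meg3 clone, 10.62 ± 0.90 in the vector clone), followed by Igf1r, the receptor of insulin-like growth factor (9.69 ± 0.50 and 10.18 ± 0.79). Without the arrays that stood apart, 1 receptor was called higher and 2 lower, where 1.43% of all genes were called higher and 4.01% lower, all 3 named here after their values were seen. The higher one was Cckar, a cholecystokinin receptor (0.74, SE 0.12; adjusted p = 0.00759), which with all arrays differed by 0.62 (SE 0.22; adjusted p = 0.538). The lower ones were Igf1r (-0.66, SE 0.10; adjusted p = 0.00454) and Sstr2, a somatostatin receptor (-0.74, SE 0.16; adjusted p = 0.0298).

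Of 18 transcription factor genes known to act on islet hormone genes, 0 were called by limma with all arrays or without those that stood apart, and 0 had an unadjusted p under 0.05 with all arrays. Of all genes, 0.666% were called with all arrays and 5.44% without those that stood apart, and 6.96% had such a p, so few calls among 18 genes are no result about them. The brightest were Isl1 (10.84 ± 0.16 in the Meg3 clone, 10.72 ± 0.46 in the vector clone) and Insm1 (10.60 ± 0.21 and 10.69 ± 0.21). Of 11 genes of prohormone processing and granules, 1 was called lower by limma, where 0.465% of all genes were called lower. It was Qpct, which encodes glutaminyl cyclase, the enzyme that forms the pyroglutamate at the start of some peptide hormones (5.20 ± 0.20 in the Meg3 clone, 6.16 ± 0.14 in the vector clone; log2 difference -0.96, SE 0.14; adjusted p = 0.0285). It was dim, and exceeded the background yardstick on 2 arrays. Without the arrays that stood apart, 3 of the 11 were lower, where 4.01% of all genes were: Qpct (-1.14, SE 0.10), the prohormone convertase genes Pcsk1 (-0.56, SE 0.11; adjusted p = 0.0163) and Pcsk2 (-0.40, SE 0.10; adjusted p = 0.0450), the convertases named after their values were seen.

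For the 3 brightest hormone genes, the genes with the most similar values over the 6 arrays were sought by Pearson correlation. For Iapp they were Pdha2 (0.999), Cdc73 (0.999) and Chm (0.998), for Gcg Nol7 (0.998), Laptm4a (0.998) and Tmem168 (0.997), and for Ins2 Mmrn2 (0.994), Adam18 (0.991) and Gm10851 (0.989). With 6 arrays such values are common: 8.11% of all genes correlated with Iapp above 0.9, 3.82% with Gcg and 1.54% with Ins2. Pdha2, Mmrn2, Adam18 and Gm10851 were dim, with means from 3.96 to 5.56.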

How the data were processed

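Biotin-labelled RNA of 6 cultures (6 µg each) was hybridised to 1-colour Affymetrix arrays. The deposited values are log2 signals of probe sets after RMA, and the submitters' processing notes name Partek as well. For neither tool is a version known here, and no build was stated. Of 241419 probe sets, 212097 had 1 annotated symbol, 4475 several and 24847 none. The first kind were averaged per gene, giving 20416 genes. Of the symbols, 2742 were matched through a synonym of GRCm38.p6 and 53 were not matched. Meg3 minus vector was tested with limma 3.58.1 in R 4.3.3 (lmFit, eBayes, two-sided, without covariates). P-values were adjusted by Benjamini-Hochberg over the whole table of genes or of probe sets, and diffSplice compared the probe sets of a gene. The gene fit was also run on simulated data with independent noise for each gene and array. Such data lack the shared deviations of the arrays that stood apart, so that run is no check on them. No dim genes were left out of the tests reported. The 10 genes, the lists and the alternatives were chosen with earlier results of these data known.

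Named genes were the 10 hormone genes, Meg3, the 3 genes most like each of the 3 brightest hormone genes, and per list the called genes with the largest differences or, with none called, the brightest pair. The values of the acinar, fibroblast and endothelial pairs, and of Sox9 in the duct list, are not printed. Genes outside this rule are given as named after their values were seen. Alternatives were a replicate block, median centring, repeated quantile normalization, a filter on the dimmest 30% of genes, the brightest or the median probe set in place of the mean, robust eBayes with trend, a linear model without moderation, array weights, leaving out arrays, and other background percentiles. An array has no read depth, and the number of arrays limits the precision. Signals near the top of the scale can be compressed, which was not tested.

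Deviations from the group means of same-numbered cultures correlated at -0.61, -0.63 and 0.28 over genes. Those of Meg3 replicate 1 and vector replicate 2, the arrays that stood apart, correlated at 0.65, and those of other unlike-numbered cultures at -0.54 to 0.60. The arrays that stood apart carry different numbers and weigh on such deviations, so these values cannot decide whether the numbers mark pairs.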

Additional observations from a re-analysis of the deposited data

How the results depend on the processing

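Over 16 alternative settings each, 144 of 160 differences of single hormone genes kept their direction and stayed uncalled, 13 changed sign while uncalled, and 3 were called (Cck and Ghrl with array weights, Cck without Meg3 replicate 1 and vector replicate 2). With the brightest probe set the sign changed for Pyy (0.10), with the median of probe sets for Ppy (-0.24), Gast (-0.041) and Cck (0.015), and with array weights for Pyy (0.18) and Ttr (-0.032). Without both arrays it changed for Pyy (0.054) and Ttr (-0.065). Leaving out 1 array at a time gave -0.289 to 0.123 for Iapp and -0.207 to 0.073 for Pyy, with the sign changed without vector replicate 2. It gave -0.050 to 0.162 for Ttr, changed without the same array, and -0.066 to 0.321 for Gast, changed without Meg3 replicate 1 and without vector replicate 3 (-0.062). The cause was not tested.

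Hormone genes called were 0 of 10 by limma in all settings but array weights (2) and leaving out both arrays (1). Of all genes, 13.1% were called with array weights and 5.44% without both arrays. Over all genes, 41 were higher and 95 lower. The fit with a replicate block called 11 and 19, the brightest probe set 12 and 28, and the median of probe sets 16 and 42. The ordinary linear model called 0 and 0 (697 and 846 at an unadjusted p under 0.05), array weights called 1063 and 1619, although that estimate did not fully converge, and leaving out both arrays called 292 and 819. Leaving out 1 array at a time gave 8 to 78 higher and 14 to 271 lower. The replicate block called 0 hormone genes, as did the fit without it. Single hormone probe sets and diffSplice gave 0 called in every setting run. Of all 241419 probe sets, 2 were called with all arrays and 0 without both arrays. Over the settings run, diffSplice called 32 to 336 of 18124 genes. With so few calls on the whole array, the 0 is no result about the hormone genes. Probe sets above background on all arrays numbered 34 of 43 at the 95th percentile of olfactory receptor probe sets, 39 at the 90th and 28 at the 99th. Shares over all probe sets were not counted, and most probe sets exceed the 95th percentile on any given array. For the dim genes signal near background limits what can be read.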
